A study of Rattus norvegicus with 47 samples.

Results

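Frozen liver adenomas were compared with frozen liver nodules of the rat. The 11 lesions are all arrays of the series with these group labels among its 47 arrays: 6 adenomas and 5 nodules, each measured on 1 single-colour Affymetrix array that reads the 3′ ends of transcripts. The lesions come from few rats. Adenomas 1 to 3 were taken from rat 14 and adenomas 4 to 6 from rat 23. Nodules 1 and 2 came from rat 10, nodules 3 and 4 from rat 11, and nodule 5 from rat 14, so that rat 14 alone carried both kinds of lesion. Surrounding liver of the same rats was the control tissue. The labels name 1 surrounding array as the control set of each rat's lesions (4 arrays, of rats 14, 23, 10 and 11), and 7 frozen surrounding arrays exist in all.

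Every rat was a male Wistar animal (Han-Wistar in the growth protocol). Each was given the carcinogen N-nitrosomorpholine once, at 250 mg/kg and an age of 4 weeks, which leaves mutated hepatocytes behind. After 3 weeks without treatment, phenobarbital, a liver tumour promoter, was added to the drinking water at 50 mg/kg per day. The labels give its duration as 17 months, and the protocol as up to 17 months. Adenomas, nodules and surrounding liver therefore all carry both treatments, and untreated liver enters no comparison here. The source names call the nodules minitumours. The labels do not say how large the lesions were, how cleanly they were cut from the liver or which mutations they carry.

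In this model, foci of altered hepatocytes grow into nodules and adenomas. Lesion hepatocytes commonly make the placental glutathione transferase Gstp1 and drug-metabolizing reductases, while genes of the differentiated liver cell, such as cytochromes P450 and bile acid transporters, are reduced. In normal liver few hepatocytes divide, so transcripts of mitotic genes such as Mki67 and Cdk1 are scarce. Cyp2e1 and Cyp1a2 are made around the central vein, partly under Wnt signalling.

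The deposited values are log2 probe set signals, and arrays give no molecule counts; precision depends on how many arrays there are. Array medians lay between 5.49 and 5.57 in the adenomas, between 5.50 and 5.59 in the nodules and between 5.49 and 5.53 in the 4 control arrays. Hepatocyte and male transcripts were present in all lesions. Albumin (Alb) had log2 signals of 15.06 to 15.13 in the adenomas and 15.05 to 15.10 in the nodules, the Y-linked Uty read 8.09 to 8.52 in the adenomas and 7.85 to 8.69 in the nodules, and Xist stayed between 2.86 and 3.57 in all lesions. Adenomas were less alike than nodules. The median correlation between 2 arrays over 14217 genes was 0.975 among adenomas, 0.985 among nodules and 0.971 between an adenoma and a nodule, and the median SD of a gene was 0.214 in the adenomas and 0.191 in the nodules.

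Adenomas 1, 2 and 6 and nodule 4 stood apart from the other lesions of their groups. The mean of 9 measured cholangiocyte and progenitor markers, relative to the lesion's own control array, was higher by 2.85, 2.64 and 1.91 log2 in adenomas 1, 2 and 6 and by 0.41 to 0.66 in adenomas 3, 4 and 5. It was higher by 2.83 in nodule 4 and by 0.13 to 0.87 in the other 4 nodules. The same 4 lesions had the highest means of stellate cell and fibroblast markers, annexins and S100 proteins, and antigen presentation genes, as the plot of gene lists by lesion shows. Counts of called genes are therefore also given without these 4 lesions, which leaves adenomas 3, 4 and 5 and the other 4 nodules. Values of some genes and gene groups are given in this way too, but not every changed call. The lesions to leave out were chosen after the values were seen, so the fits without them are no independent check.

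**Figure D1:**
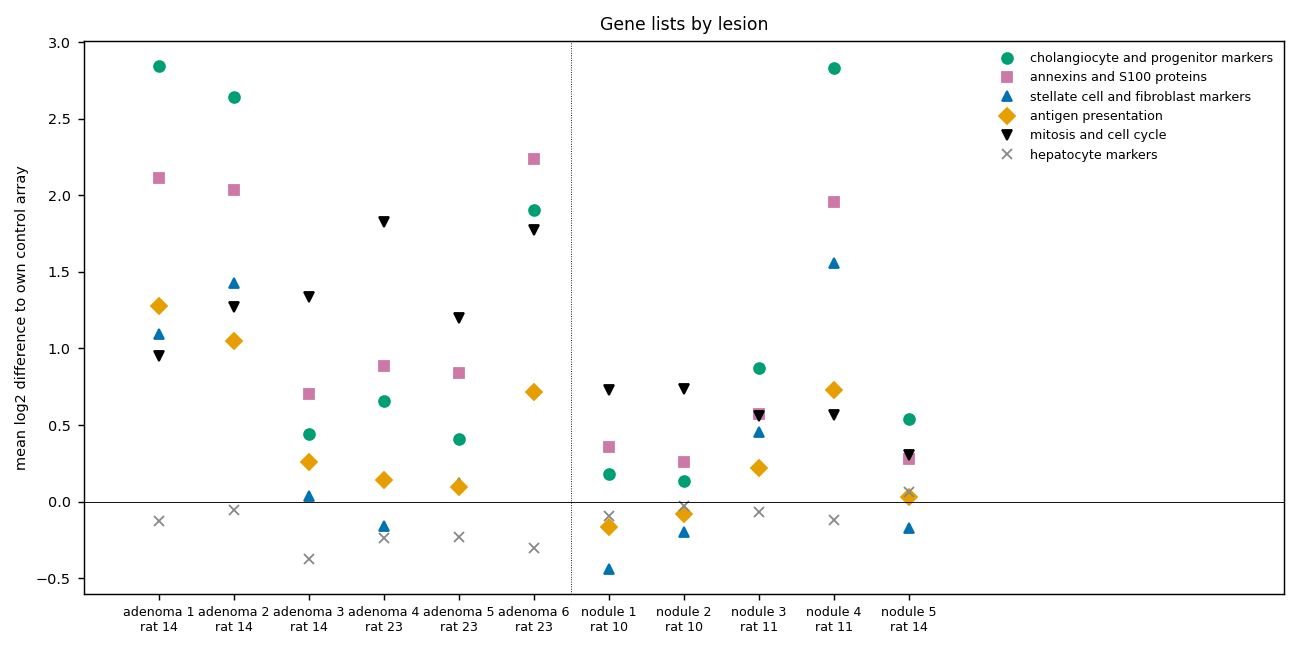
Mean log2 difference of 6 gene lists between each lesion and the control array of its rat (vertical axis), for adenomas 1 to 6 on the left and nodules 1 to 5 on the right. Cholangiocyte markers reach 2.85, 2.64, 1.91 and 2.83 in adenomas 1, 2 and 6 and nodule 4, while the mitosis list lies between 0.95 and 1.82 in all 6 adenomas and between 0.30 and 0.74 in all 5 nodules.

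Which genes separate adenomas from nodules depended on how the rats were handled, and 3 fits with limma are given side by side, each as adenoma minus nodule and adjusted by Benjamini-Hochberg over 14217 genes. The animal-blocked fit holds the rat constant over 26 frozen arrays, carcinomas and surrounding liver included. Only 1 rat holds both lesion types, so for the other rats the difference runs mostly through their surrounding liver. This fit therefore draws on the control arrays of the subtracted fit, beside further arrays. The animal-blocked fit called no gene at an adjusted p under 0.05 (0% in either direction), and 2265 genes had an unadjusted p under 0.05. Of these, 1352 were higher (9.51% of genes) and 913 lower (6.42%) in adenomas, and the smallest adjusted p was 0.0638. The plain fit compares the 11 lesions without regard to the rat and called 23 genes higher (0.162%) and 49 lower (0.345%). The control-set-subtracted fit first takes each lesion's own control array away, and it called 44 genes higher (0.309%) and 20 lower (0.141%). Counts of called list members below are to be read beside these shares over all genes. Lesions of 1 rat are not independent, and lesions that share a control array share its error, while the plain and subtracted fits treat them as independent. The correlation estimated within a rat was -0.00255 over the 11 lesions, and with the rat as a random block 25 genes were called higher and 49 lower. That correlation is 1 value over all genes, and only 1 rat holds both lesion types, so it cannot show that lesions of a rat are independent. With the lesions of a rat averaged within each type, 0 genes were called higher and 4 lower. All 3 fits rest on the same lesions and do not check each other.

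The counts moved strongly with single arrays. The animal-blocked fit called 102 higher and 112 lower genes without adenoma 2, 56 and 25 without adenoma 5, 46 and 18 without nodule 4, 15 and 6 without adenoma 4, and 2 and 1 without adenoma 3. It called none without any other single lesion or any of the 4 control arrays. The plain fit called none without adenoma 6 or nodule 1, 2 or 3, and 0 and 7 without adenoma 1, 2 and 11 without adenoma 3 and 7 and 24 without adenoma 4. It called more without adenoma 2 (190 higher, 234 lower), adenoma 5 (56 and 76), nodule 4 (65 and 62) and nodule 5 (28 and 83). The subtracted fit called none without adenoma 4 or 6, nodule 1, 2 or 3 or the control array of rat 10. It called 8 and 0 without adenoma 1, 2 and 1 without adenoma 3, 16 and 3 without nodule 5, and 6 and 0 or 1 and 0 without the control array of rat 11 or rat 23. It called more without adenoma 2 (248 higher, 209 lower), adenoma 5 (112 and 71), nodule 4 (110 and 48) and the control array of rat 14 (68 and 48). Without adenomas 1, 2 and 6 and nodule 4, the blocked fit called 38 higher and 43 lower, the plain fit 37 and 69, and the subtracted fit 85 and 101. With every array centred on its median, the subtracted fit called 38 higher and 91 lower, and with quantile normalization 17 in each direction.

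The plain and subtracted fits called 14 genes in common, 7 in each direction, all with the same sign in the animal-blocked fit. Higher in adenomas were Stx3, a membrane fusion protein of the cell surface, the surface membrane protein Emp1, the annexin partner S100a10, the galactosyltransferase B4galt5, the cap-binding protein Eif4e3, the trafficking protein Aagab and the Mediator subunit Med10. Lower were the cytochrome P450 Cyp1a2, the glutathione transferase Gstp3, the bile acid importer Slc10a1, the pyrimidine-degrading Dpyd, the Wnt receptor Fzd8, the sugar reductase Dcxr and the ubiquitin ligase adaptor Zyg11b. Without adenomas 1, 2 and 6 and nodule 4, Stx3, Emp1, S100a10, Eif4e3, Cyp1a2, Gstp3 and Slc10a1 were called in both fits, while Aagab, Med10 and Fzd8 were called in neither, B4galt5 and Dpyd not in the plain fit, and Dcxr and Zyg11b not in the subtracted fit. Stx3, Gstp3, Zyg11b and Fzd8 were then called in the blocked fit (limma adjusted p = 0.0393, 0.0196, 0.0265 and 0.0488).

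Stx3 had log2 signals of 7.07, 7.52 and 7.87 (lowest, median, highest of 6 adenomas) against 6.58, 6.40, 6.74, 6.89 and 6.55 in nodules 1 to 5. Every adenoma lay above every nodule, and so it did after subtraction. Stx3 was 1.79-fold higher in the blocked fit (log2 0.84 ± 0.15 SE, limma adjusted p = 0.0638), 1.84-fold in the plain fit (adjusted p = 0.0422) and 1.80-fold in the subtracted fit (0.85 ± 0.13, adjusted p = 0.0314). Emp1 read 9.90, 10.39 and 11.02 in the adenomas, against 8.70, 8.10, 8.52, 9.85 and 9.05 in the nodules. The groups did not overlap, although nodule 4 came within 0.1 of adenoma 2. Emp1 was 3.08-fold higher in both the plain and the subtracted fit (limma adjusted p = 0.0398 and 0.0314), and not called in the blocked fit (log2 1.74 ± 0.74, adjusted p = 0.258).

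Zyg11b showed the narrowest groups on the lower side, with 6.38, 6.56 and 6.65 in the adenomas against 7.55, 7.49, 7.59, 7.17 and 7.09 in the nodules. It was 1.60-fold lower in the blocked fit (log2 -0.68 ± 0.12, limma adjusted p = 0.0638) and 1.79-fold lower in the plain fit (adjusted p = 0.0223). Gstp3, a rodent pi-class glutathione transferase, read 6.27, 7.25 and 8.71 in the adenomas, against 10.28, 10.51, 11.08, 10.59 and 9.46 in the nodules. Its control arrays read 10.05 and 10.03 in rats 14 and 23 and 10.83 and 11.39 in rats 10 and 11, so the adenomas were 1.34 to 3.78 log2 below their own liver and the nodules 0.30 to 0.79. The difference was -3.08 ± 0.42 log2 in the plain fit (limma adjusted p = 0.0223), -2.22 ± 0.37 after subtraction (adjusted p = 0.0314) and -2.11 ± 0.40 in the blocked fit (adjusted p = 0.071).

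**Figure D2:**
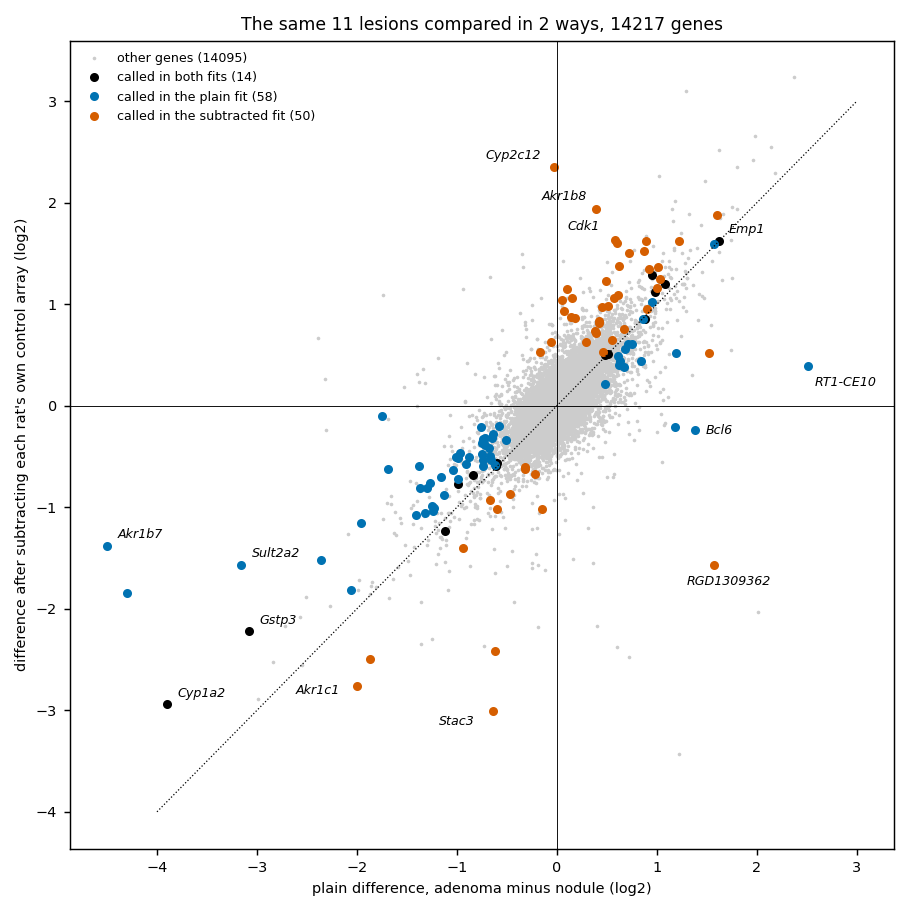
Each point is a gene, with its plain difference (adenoma minus nodule, log2) on the horizontal axis and its difference after subtraction of the control arrays on the vertical axis. The dotted line marks equal values, and colours mark the genes called in the plain fit, the subtracted fit or both (14). Akr1b7 and RT1-CE10 lie far from the line on the plain side, and Cyp2c12 and Stac3 on the subtracted side.

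Genes of cell division were higher in adenomas than in nodules relative to the liver around them, and far less so in plain levels. Of 29 measured genes of mitosis and the cell cycle, all 29 were positive in the animal-blocked fit, with a median of 0.61 log2 against 0.02 over all genes. None was called there, and 19 of 29 were higher at an unadjusted p under 0.05, where 9.51% of all genes were. In the subtracted fit the median was 0.80 (all genes 0.03) and 5 of 29 were called higher, where 0.309% of all genes were: Cdk1, Mki67, Ect2, Top2a and Kif20a. After subtraction, 10 of 29 had all 6 adenomas above all 5 nodules, where 1.77% of all genes did. In the plain fit the median was 0.19, none was called, and 1 of 29 did not overlap, where 1.09% of all genes lay wholly above.

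Mki67, the Ki-67 antigen of dividing cells, had log2 signals of 6.31, 6.56 and 6.75 (lowest, median, highest) in the adenomas and 6.57, 6.39, 6.54, 6.42 and 4.43 in nodules 1 to 5. Apart from the low nodule 5, the levels in both lesion types were alike. The control arrays read 3.94 in rat 14, 4.17 in rat 23, 4.77 in rat 10 and 5.24 in rat 11. Relative to these, Mki67 was 2.37 to 2.62 log2 higher in the adenomas, against 1.80, 1.62, 1.30, 1.18 and 0.49 in the nodules, with no overlap. The difference was 1.23 ± 0.20 log2 in the subtracted fit (2.35-fold, limma adjusted p = 0.0314), 1.23 ± 0.29 in the blocked fit (adjusted p = 0.0844) and 0.50 ± 0.34 in the plain fit (adjusted p = 0.456).

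Cdk1, the kinase that drives entry into mitosis, followed the same pattern. Its signals were 6.79, 7.24 and 7.81 in the adenomas against 6.95, 7.02, 6.95, 7.12 and 5.34 in the nodules, and 4.42 and 4.44 in the control arrays of rats 14 and 23 against 6.04 and 5.47 in those of rats 10 and 11. After subtraction, all adenomas (2.36 to 3.37) lay above all nodules (0.90 to 1.65). The difference was 1.64 ± 0.22 log2 (3.11-fold, limma adjusted p = 0.0275) in the subtracted fit and 1.43 ± 0.32 (2.69-fold, adjusted p = 0.0751) in the blocked fit. Ect2, the exchange factor that starts cytokinesis, was 3.04-fold higher in the subtracted fit (1.61 ± 0.24, limma adjusted p = 0.0314). Top2a, a topoisomerase of replicating chromosomes, was 1.82-fold higher there (adjusted p = 0.0486), and Kif20a, a cytokinesis motor, 2.09-fold (adjusted p = 0.0446).

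The cyclins Ccna2 and Ccnd1 were not called in any fit. Ccna2, the S-phase cyclin, differed by 1.32 ± 0.32 log2 in the blocked fit (limma adjusted p = 0.0844). Ccnd1, the cyclin of growth factor signals, differed by 1.32 ± 0.32 there (adjusted p = 0.0851) and by 1.65 ± 0.34 in the plain fit (adjusted p = 0.0542), where it read 9.38, 10.00 and 10.43 in the adenomas against 7.39, 7.44, 8.63, 9.28 and 8.80 in the nodules. It was called in the subtracted fit without adenomas 1, 2 and 6 and nodule 4 (1.58, adjusted p = 0.0186). Its adenomas all lay above its nodules without subtraction, and it is the 1 mitosis list gene for which this holds.

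The mean of the 29 genes makes the part of the control arrays visible. It lay between 5.92 and 6.65 in the adenomas, at 6.21, 6.21, 6.14 and 6.14 in nodules 1 to 4 and at 5.27 in nodule 5. The control arrays read 4.97 in rat 14 and 4.82 in rat 23, below 5.48 in rat 10 and 5.58 in rat 11. Within rat 14, whose 3 adenomas and nodule share 1 control array, the median of the 29 differences was 0.86 log2 and all 29 were positive, with 1 nodule and no test. Without adenomas 1, 2 and 6 and nodule 4, the median in the subtracted fit was 0.76, and Cdk1 (adjusted p = 0.0112) and Ect2 (0.0474) were called, whereas Mki67 (0.0786), Top2a (0.083) and Kif20a (0.0589) were not (limma).

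**Figure D3:**
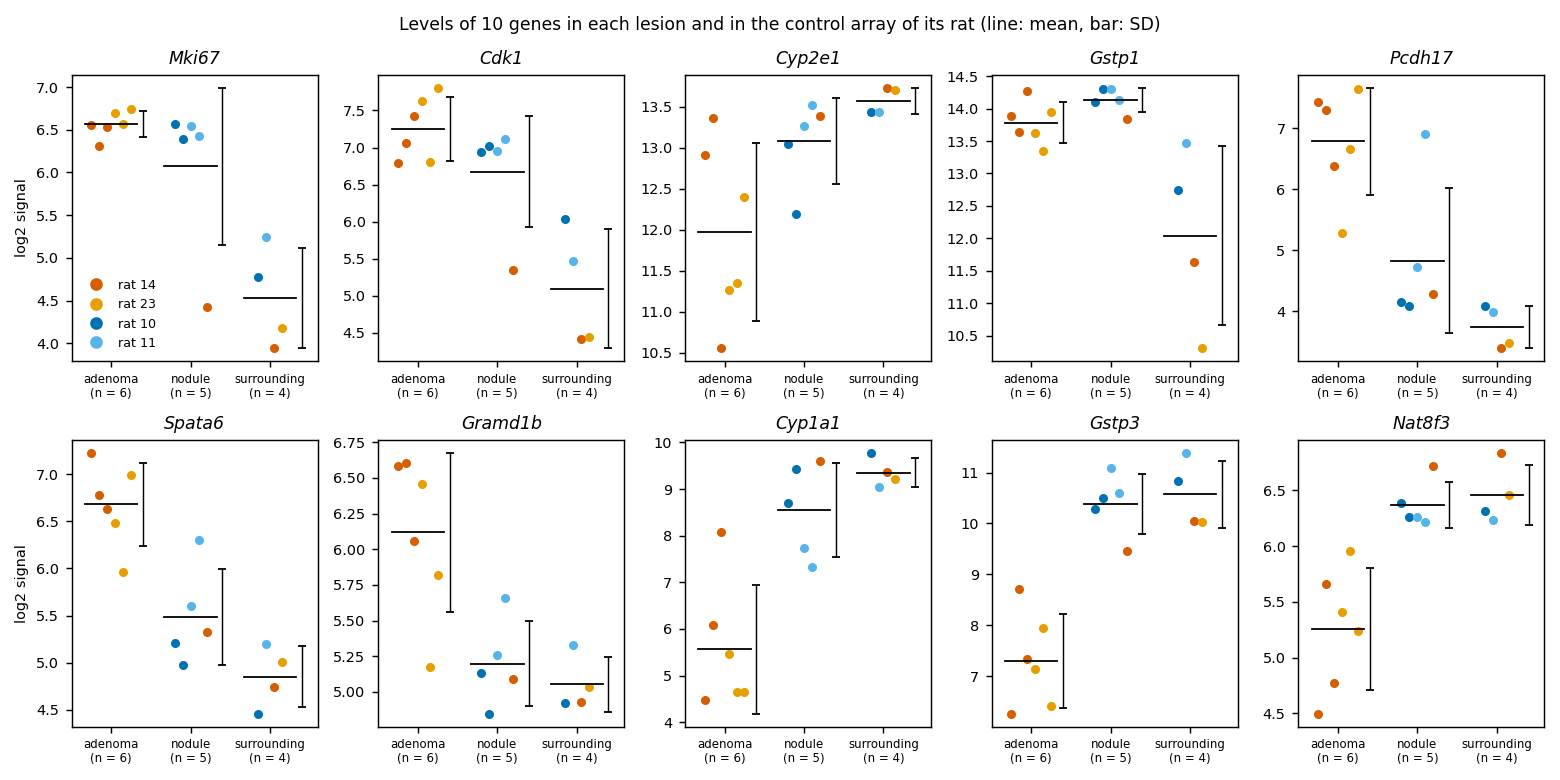
Log2 signal (vertical axes) of 10 genes in each adenoma, nodule and control array, coloured by rat, with group means (lines) and SD (bars). Mki67 and Cdk1 overlap between adenomas and nodules apart from the low nodule of rat 14, whereas Gstp3 (6.27 to 8.71 in adenomas, 9.46 to 11.08 in nodules) and Nat8f3 (4.50 to 5.96 and 6.21 to 6.72) do not.

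Replication genes behaved in a similar way with smaller differences. Of 23 measured DNA replication genes, 20 were positive in the blocked fit (median 0.46 log2) and none was called there. At an unadjusted p under 0.05, 12 were higher, where 9.51% of all genes were. In the subtracted fit the median was 0.41, and Mcm6, a subunit of the replicative helicase, was the 1 gene called. Mcm6 read 7.53, 7.80 and 8.12 in the adenomas against 6.53, 6.92, 7.11, 7.98 and 5.89 in the nodules, and nodule 4 was within the adenoma range. After subtraction it was 2.55-fold higher (1.35 ± 0.24 log2, limma adjusted p = 0.0394) with no overlap between the groups. Outside these lists, the subtracted fit also called the cell cycle and repair genes Cdca3 (1.04 ± 0.16), Exo1 (0.83 ± 0.11), Trip13 (1.16 ± 0.21) and Tcf19 (0.88 ± 0.17) higher, with limma adjusted p between 0.0275 and 0.0486. These 4 were picked from the called genes after their values were seen.

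Mitotic genes often share CCAAT boxes, bound by the factor NF-Y, and TTTGAA elements (cell cycle homology regions), which repress transcription outside the dividing phases. Promoters of this list are shown because all its 29 genes had positive differences in both the blocked and the subtracted fit and within rat 14. Both fits use the same control arrays and lesions, so these signs are not separate findings. The windows of 4 of the 5 called mitosis genes are printed as examples, without Kif20a, and no rule chose them. All 4 hold both elements, which 14 of 22 promoters of the list did. The windows run from 250 bases before to 50 after the start of transcription, in RefSeq sequence of build GRCr8. Capitals mark CCAAT and TTTGAA on either strand (ATTGG and TTCAAA on the reverse). They are Cdk1 at chr20:19265043-19265342 (plus strand), Mki67 at chr1:199952544-199952843 (minus), Ect2 at chr2:111966577-111966876 (minus) and Top2a at chr10:84473044-84473343 (minus).
Cdk1: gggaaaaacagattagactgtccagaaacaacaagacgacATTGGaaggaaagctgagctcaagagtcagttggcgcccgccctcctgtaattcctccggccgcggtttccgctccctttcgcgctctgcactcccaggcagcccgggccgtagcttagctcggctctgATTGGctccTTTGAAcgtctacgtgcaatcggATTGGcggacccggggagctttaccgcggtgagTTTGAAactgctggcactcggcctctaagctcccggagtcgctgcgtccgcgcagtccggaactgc
Mki67: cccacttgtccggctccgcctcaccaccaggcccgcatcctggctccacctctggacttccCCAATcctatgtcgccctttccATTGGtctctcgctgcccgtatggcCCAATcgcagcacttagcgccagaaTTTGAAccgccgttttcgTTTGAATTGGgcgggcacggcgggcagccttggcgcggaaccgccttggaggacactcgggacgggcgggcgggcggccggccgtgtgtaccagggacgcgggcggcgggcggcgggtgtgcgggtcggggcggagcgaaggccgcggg
Ect2: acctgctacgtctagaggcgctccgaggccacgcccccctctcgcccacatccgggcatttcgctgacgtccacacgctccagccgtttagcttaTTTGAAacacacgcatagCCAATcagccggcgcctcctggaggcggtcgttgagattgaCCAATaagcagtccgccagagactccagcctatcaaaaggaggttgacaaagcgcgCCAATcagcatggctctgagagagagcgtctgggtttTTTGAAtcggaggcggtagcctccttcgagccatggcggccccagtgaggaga
Top2a: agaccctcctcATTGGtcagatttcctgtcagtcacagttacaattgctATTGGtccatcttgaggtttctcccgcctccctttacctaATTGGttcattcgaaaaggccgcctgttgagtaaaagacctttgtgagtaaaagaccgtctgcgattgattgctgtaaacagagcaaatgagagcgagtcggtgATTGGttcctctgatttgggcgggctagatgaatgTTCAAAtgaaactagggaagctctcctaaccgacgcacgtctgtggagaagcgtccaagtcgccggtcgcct

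Cdk1 and Ect2 each hold 3 CCAAT and 2 TTTGAA matches, Mki67 holds 4 and 2, and Top2a 4 and 1. In Mki67, 1 TTTGAA match shares a base with an ATTGG match. Of 22 mitosis list genes with a promoter in the table, 17 (77.3%) held CCAAT, 15 (68.2%) TTTGAA and 14 (63.6%) both. Among 11733 genes of the array with a promoter, the shares were 37.3%, 12.3% and 5.02%, and among all 27457 promoters 37.7%, 18.1% and 7.25%. Replication genes shared the CCAAT match (14 of 21, 66.7%) and mostly lacked TTTGAA (1 of 21, 4.76%). A match is a description of the letters, not a site or a cause.

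**Figure D4:**
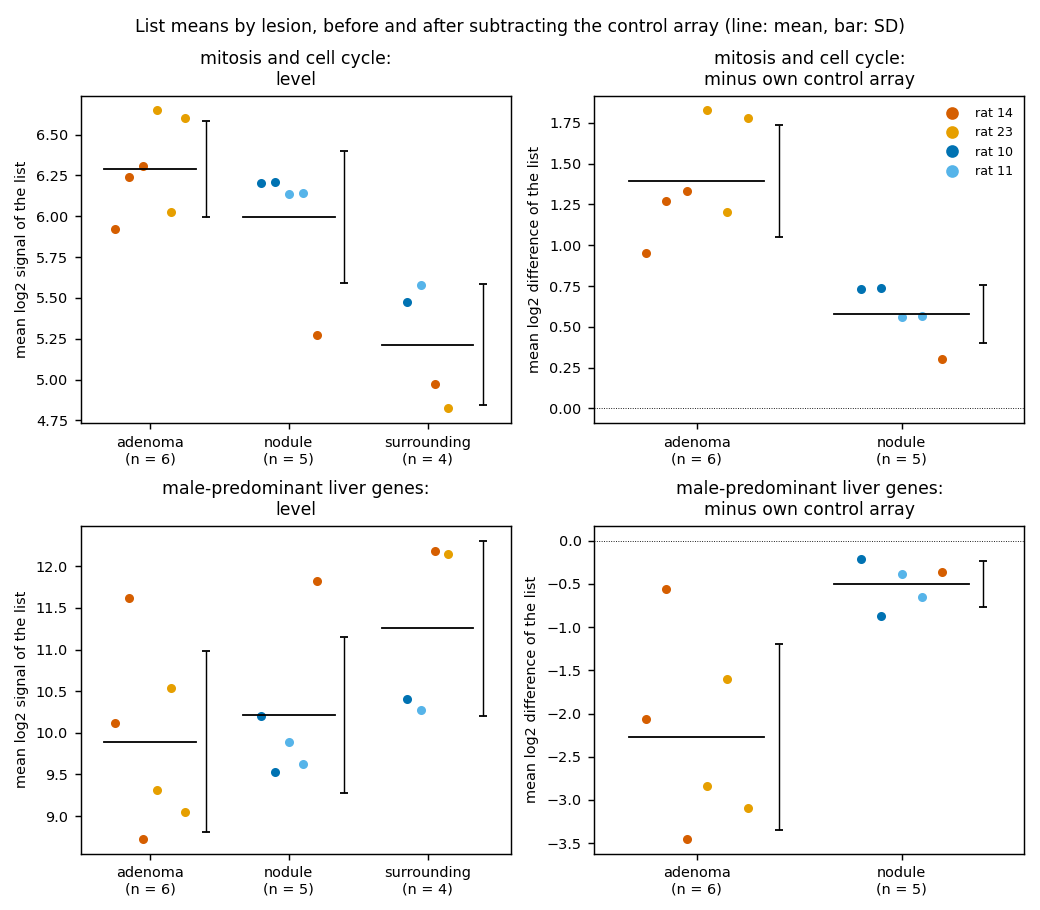
Mean of the mitosis list (top) and of the male-predominant liver genes (bottom) in each lesion and control array (left, log2 signal) and in each lesion minus its own control array (right, log2 difference), coloured by rat, with group means (lines) and SD (bars). Mitosis levels overlap between adenomas and nodules before subtraction and lie at 0.95 to 1.82 in adenomas and 0.30 to 0.74 in nodules after it. The control arrays of rats 14 and 23 are low for mitosis genes and high for male-predominant genes.

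Of the cytochromes P450 made around the central vein, Cyp1a2 was called lower in adenomas in the plain and subtracted fits, and Cyp1a1 and Cyp2e1 in none of the 3. Cyp1a2, the main caffeine-metabolizing P450, read 6.31, 6.76 and 9.50 (lowest, median, highest) in the adenomas, against 11.36, 9.61, 11.90, 11.62 and 10.68 in the nodules. All adenomas lay below all nodules, adenoma 2 by about 0.1. The control arrays read 11.34, 11.03, 12.36 and 12.33 in rats 14, 23, 10 and 11. Cyp1a2 was 14.9-fold lower in adenomas in the plain fit (log2 -3.90 ± 0.57, limma adjusted p = 0.0311) and 7.68-fold lower after subtraction (-2.94 ± 0.55, adjusted p = 0.045), where adenoma 2 (-1.84) lay above nodule 2 (-2.76). In the blocked fit it differed by -3.31 ± 0.81 (adjusted p = 0.0844).

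Cyp1a1, its close relative that is induced through the same receptor, had the joint smallest adjusted p of the blocked fit among lower genes. It differed by -3.03 ± 0.53 log2 there (limma adjusted p = 0.0638), by -2.99 ± 0.65 in the plain fit (adjusted p = 0.0572) and by -2.89 ± 0.59 after subtraction (adjusted p = 0.053), and so passed in none. It read 4.47, 5.05 and 8.08 in the adenomas against 8.71, 9.42, 7.73, 7.32 and 9.60 in the nodules, and adenoma 3, the highest, lay within the nodule range. With those 4 lesions left out (adenomas 1, 2 and 6 and nodule 4), Cyp1a1 was called in the blocked fit (-2.29, adjusted p = 0.0395). The other 6 of 8 measured aryl hydrocarbon receptor genes were not called in any fit, and the list median was -0.05 in the blocked fit, with 4 of 8 positive.

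Of 13 measured Wnt targets and pericentral genes, 12 were negative in the blocked fit (median -0.65 log2, plain -0.42, subtracted -0.56). None was called in the blocked fit, Cyp1a2 in the plain fit, and Cyp1a2 and Tbx3 in the subtracted fit. Tbx3, a T-box factor and Wnt target of liver, was 2.65-fold lower after subtraction (-1.41 ± 0.26 log2, limma adjusted p = 0.0446). Oat, the pericentral ornithine aminotransferase, differed by -1.45 ± 0.65 in the blocked fit (adjusted p = 0.28). Without adenomas 1, 2 and 6 and nodule 4 the list medians were -1.16 in the blocked, -0.87 in the plain and -0.92 in the subtracted fit, and Oat was called in the plain (limma adjusted p = 0.0328) and subtracted fits (adjusted p = 0.0114). Within rat 14 the list median was -0.38, with 5 of 13 positive.

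Cyp2e1, the pericentral ethanol-oxidizing P450, varied widely among adenomas. It read 10.56, 11.88 and 13.37 in the adenomas against 13.04, 12.19, 13.27, 13.52 and 13.38 in the nodules and 13.73, 13.70, 13.44 and 13.44 in the control arrays of rats 14, 23, 10 and 11. Adenomas 3, 4 and 5 were 2.35 to 3.17 log2 below their control arrays, while adenomas 1 and 2 were 0.81 and 0.36 below. The difference to nodules was -1.27 ± 0.48 in the blocked fit (limma adjusted p = 0.21), -1.11 ± 0.47 in the plain fit (adjusted p = 0.241) and -1.32 ± 0.46 after subtraction (adjusted p = 0.149). Without adenomas 1, 2 and 6 and nodule 4 it was -2.20, -1.92 and -2.11 in the 3 fits, with limma adjusted p of 0.0196, 0.0342 and 0.0112. Adenomas 1 and 2, where Cyp2e1 was least reduced, are among the lesions left out. A larger difference was therefore built into the choice, and these p are no separate evidence. Those 4 lesions are the ones with high cholangiocyte markers, and the part of other cells in this was not tested.

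Genes of bile acid synthesis and transport were lower in adenomas as a group. All 18 measured members were negative in the blocked fit (median -0.75 log2) and in the subtracted fit (median -0.69), and 17 of 18 in the plain fit (median -0.87). The blocked fit called none, the plain fit 3 (Slc10a1, Acox2 and Amacr) and the subtracted fit Slc10a1. Over all genes, the plain fit called 0.345% lower and the subtracted fit 0.141%. In plain levels, 4 of 18 had all adenomas below all nodules, where 1.62% of all genes did, and after subtraction 2 of 18, where 1.29% did. Within rat 14 the median was -0.93 and 1 of 18 was positive.

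Slc10a1, which takes bile acids up from the blood, read 9.96, 10.42 and 11.24 in the adenomas and 11.76, 11.70, 11.71, 11.39 and 11.69 in the nodules. The 4 control arrays read 11.85 to 12.08, so the nodules were 0.09 to 0.60 log2 below their own liver and the adenomas 0.79 to 2.12. It fell by 1.12 ± 0.21 on the log2 scale in the plain fit (limma adjusted p = 0.0459) and by 1.23 ± 0.21 in the subtracted fit (adjusted p = 0.0376), and differed by -1.26 ± 0.33 in the blocked fit (adjusted p = 0.102). Acox2, a peroxisomal oxidase that shortens bile acid side chains, differed by -0.90 ± 0.18 in the blocked fit (adjusted p = 0.074) and was 2.40-fold lower in the plain fit (adjusted p = 0.0484). Acox2 was called without adenomas 1, 2 and 6 and nodule 4 in the blocked (adjusted p = 0.0196) and subtracted fits (adjusted p = 0.0112) and not in the plain fit (adjusted p = 0.119). Amacr, the racemase of the same pathway, was 2.19-fold lower in the plain fit (adjusted p = 0.0385). The uptake carriers Slco1b2 and Slco1a1 differed by -2.17 ± 0.65 and -1.53 ± 0.48 in the blocked fit (adjusted p = 0.13 and 0.141).

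Cholesterol synthesis genes were lower in adenomas by less. Of 15 measured, 14 were negative in the blocked fit (median -0.41 log2, plain -0.43, subtracted -0.45) and none was called there. Hsd17b7, a sterol reductase, was 1.98-fold lower in the plain fit (limma adjusted p = 0.0332). After subtraction, Idi1, the isomerase of the isoprenoid branch, was 1.54-fold lower (-0.63 ± 0.10, adjusted p = 0.0314) and Sqle, the squalene epoxidase, 1.52-fold lower (-0.61 ± 0.11, adjusted p = 0.0394). Sqle was 0.69 to 1.13 log2 below the own control array in the adenomas and 0.12 to 0.56 below in the nodules, without overlap, although its levels of 8.73, 8.78 and 9.03 in the adenomas reached those of nodule 4 (nodules 9.14, 9.10, 9.20, 8.81 and 9.49).

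As a list mean, markers of foci and fetal liver were higher in both lesion types than in their own liver. The mean lay 1.22 to 2.38 log2 above it in the adenomas and 0.63 to 1.48 in the nodules. Afp of this list went the other way. Its adenoma means were 7.91 and 7.64 in rats 14 and 23, against 8.42 and 8.40 in the control arrays. Its nodule means were 8.45, 8.50 and 8.33 in rats 10, 11 and 14, against 8.62, 8.84 and 8.42. Gstp1, the placental form of glutathione transferase that marks foci in rat liver, read 13.35, 13.76 and 14.27 in the adenomas against 14.11, 14.30, 14.30, 14.14 and 13.84 in the nodules. Nodules 1 to 4 lay above 5 of the 6 adenomas. The control arrays read 11.63 in rat 14 and 10.30 in rat 23, against 12.74 in rat 10 and 13.47 in rat 11. The sign therefore turned with the fit: -0.35 ± 0.15 log2 in plain levels (limma adjusted p = 0.255), 1.49 ± 0.33 after subtraction (adjusted p = 0.0567) and 0.75 ± 0.40 in the blocked fit (adjusted p = 0.371), none of them called. Gstp1 was called in the subtracted fit without adenomas 1, 2 and 6 and nodule 4 (1.51, limma adjusted p = 0.0399), and the plain difference was -0.39. Within rat 14 adenomas and nodule differed by 0.09.

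Of the 15 markers of foci and fetal liver, 12 were positive in the blocked fit (median 0.86 log2) and none was called. In the plain fit the median was 0.27, and in the subtracted fit 0.93. Within rat 14, where both lesion types share 1 control array, it went the other way, with a median of -0.13 and 6 of 15 positive. Akr1b8, an aldo-keto reductase of liver tumours, was the 1 gene called in the subtracted fit. It read 11.83, 12.57 and 12.92 in the adenomas against 12.41, 12.30, 11.73, 12.30 and 11.74 in the nodules, with overlap. The control arrays read at most 9.12 in rats 14 and 23 and at least 10.96 in rats 10 and 11, and Akr1b8 was 3.82-fold higher after subtraction (1.93 ± 0.30, limma adjusted p = 0.0314). Nodule 5 of rat 14 (2.62 above its control array) came close to adenoma 2 of the same rat (2.71). Anxa2, Sox4 and Mmd were not called and differed by 1.44 ± 0.42, 0.83 ± 0.23 and 1.16 ± 0.46 in the blocked fit (adjusted p = 0.125, 0.115 and 0.226).

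Targets of NRF2, the factor of the antioxidant response, lay 0.94 to 1.91 log2 above the own liver in the adenomas and 0.53 to 1.08 above in the nodules as a list mean, and nodule 5 (1.08) exceeded adenoma 2 (0.94) of the same rat. Of 18 measured, 17 were positive in the blocked fit (median 0.53 log2, plain 0.46) and all 18 in the subtracted fit (median 0.69). Within rat 14 the median was 0.13 and 13 of 18 were positive. The subtracted fit called 1, Tkt, a transketolase of the pentose phosphate pathway. Tkt read 11.49, 12.08 and 12.57 in the adenomas against 11.50, 11.36, 11.95, 11.78 and 11.35 in the nodules, and was 1.96-fold higher after subtraction (0.97 ± 0.19, limma adjusted p = 0.0487). The cystine importer Slc7a11 was 2.50 to 6.41 log2 above the own control array in the adenomas and 1.55 to 3.61 above in the nodules, so the groups overlapped (blocked 1.84 ± 0.74, adjusted p = 0.235). The core of the antioxidant response element, TGACNNNGC on either strand, was found in 4 of 16 promoters of the list (25.0%), against 14.4% of array genes.

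Annexins and S100 proteins, calcium-binding proteins of membranes and the cell cortex, had the highest list median in the blocked fit, 1.03 log2 over 10 genes, 9 of them positive (plain 0.85, subtracted 0.89). The blocked fit called none, the plain fit S100a10 and Anxa5, and the subtracted fit S100a10. S100a10 read 10.62, 11.05 and 11.28 in the adenomas against 9.82, 9.73, 10.02, 10.75 and 9.86 in the nodules. Nodule 4 reached the lowest adenoma, and the other 4 nodules lay below all adenomas. S100a10 rose 1.97-fold in the plain fit (limma adjusted p = 0.0459) and 2.18-fold after subtraction (1.12 ± 0.20, adjusted p = 0.0446). Anxa5, which binds phosphatidylserine, rose 1.79-fold in the plain fit (adjusted p = 0.0422).

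S100a11 shows how far this list followed single lesions. It was 4.20, 4.18 and 3.62 log2 above the own control array in adenomas 1, 2 and 6, 1.17, 1.51 and 1.35 above in adenomas 3, 4 and 5, 4.12 above in nodule 4 and 0.53 to 1.55 above in the other nodules. Without those 4 lesions the list median in the subtracted fit was 0.47, and S100a10 was called in the plain fit (limma adjusted p = 0.0215) and the subtracted fit (adjusted p = 0.0112), but Anxa5 was not (plain adjusted p = 0.0795).

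Genes of the sexes' liver programmes differed between rats before they differed between lesions. Male-predominant genes depend in rats on the pulses of growth hormone. Their mean was 12.18 in the control array of rat 14 and 12.15 in that of rat 23, against 10.41 in rat 10 and 10.28 in rat 11, although all rats were male by label and by Uty. All 9 measured genes were negative in the blocked fit (median -1.41 log2) and in the subtracted fit (median -1.55), and the plain median was -0.25. None was called in any of the 3 fits. The adenomas lay 0.56 to 3.45 log2 below their own liver in the list mean and the nodules 0.21 to 0.87, and adenoma 2 overlapped with the nodules.

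Obp3, a secreted lipocalin of male rat liver, read 4.72, 7.71 and 11.25 in the adenomas against 5.53, 5.37, 5.32, 4.22 and 11.99 in the nodules. The highest nodule is nodule 5 of rat 14, whose control array read 12.69, while those of rats 10 and 11 read 6.94 and 5.50. The plain difference was 1.22 ± 1.37 log2 (limma adjusted p = 0.674), and after subtraction it was -3.43 ± 0.76 (adjusted p = 0.0567), or -3.66 and called without adenomas 1, 2 and 6 and nodule 4 (adjusted p = 0.0139). Cyp2c12, the female-type steroid hydroxylase, did the opposite. It was 5.11-fold higher after subtraction (2.35 ± 0.34, adjusted p = 0.029), with 1.53 to 2.97 in the adenomas and -0.89 to 1.04 in the nodules. The plain levels were alike, with 11.42, 12.49 and 13.05 in the adenomas and 12.76, 12.77, 12.93, 12.38 and 11.12 in the nodules (plain -0.03 ± 0.35, adjusted p = 0.979). Its control arrays read 10.09 and 9.89 in rats 14 and 23 and 12.62 and 13.27 in rats 10 and 11.

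Other genes called in 1 of the fits also differed between the control arrays of the rats. RT1-CE10, a class I histocompatibility gene, was called in the plain fit (5.69-fold higher, limma adjusted p = 0.0459), yet it read 9.92 to 10.49 in the adenomas, 7.39, 7.36, 6.65 and 6.89 in nodules 1 to 4 and 9.95 in nodule 5. The control arrays read 9.87 and 9.94 in rats 14 and 23 and 7.63 and 6.89 in rats 10 and 11, and within rat 14 adenomas and nodule differed by 0.11. Akr1b7, an aldo-keto reductase, had the lowest plain difference of any gene, -4.50 ± 0.71 (adjusted p = 0.0332). It read 4.32, 5.33 and 7.10 in the adenomas, 10.43 to 10.94 in nodules 1 to 4 and 7.18 in nodule 5, and its control arrays read 7.25 and 7.79 in rats 14 and 23 and 11.36 and 11.61 in rats 10 and 11. After subtraction its difference was -1.38 ± 0.44 (limma adjusted p = 0.121). Unlike for RT1-CE10, a difference remained within rat 14, with an adenoma mean of 5.45 against 7.18 in its nodule (no test). Without adenomas 1, 2 and 6 and nodule 4, the plain fit called neither RT1-CE10 nor Akr1b7 (limma adjusted p = 0.14 and 0.091). Over all genes, the plain and subtracted differences had opposite signs in 3697 of 14217, among them 2 of the 72 genes of the plain fit and 4 of the 64 of the subtracted fit.

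A pair of steroid-metabolizing aldo-keto reductases was called lower in adenomas relative to their own liver. Akr1c1 was 6.80-fold lower after subtraction (-2.77 ± 0.47 log2, limma adjusted p = 0.0341) and AKR1C3l1 5.63-fold lower (-2.49 ± 0.47, adjusted p = 0.045). Akr1c1 lay 3.92 to 4.67 log2 below the control array in adenomas 1 and 3 to 6 and 1.64 below in adenoma 2, against 0.68 to 1.89 below in the nodules. Adenoma 2 was therefore within the nodule range. Close paralogues of these and of the RT1 genes can share probe signal, which was not tested.

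Among single genes, Tspo, the cholesterol-binding translocator of the outer mitochondrial membrane, was 3.07-fold higher after subtraction (1.62 ± 0.23, limma adjusted p = 0.0275). It was 1.29 to 2.72 log2 above the control array in the adenomas and 0.30, 0.30, 0.33, 0.94 and 0.60 above in the nodules. Myc, the growth-promoting transcription factor, was the 1 of 13 immediate early genes called (1.91-fold higher after subtraction, adjusted p = 0.0346). Its plain levels of 9.01, 9.44 and 9.62 in the adenomas and 9.62, 9.54, 9.23, 9.34 and 8.78 in the nodules overlapped throughout. Crp, an acute phase protein, was the 1 of 14 acute phase genes called, 2.37-fold lower in the plain fit (adjusted p = 0.0398). The list median was -0.09 in the blocked fit.

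The 20 genes with the smallest p in the animal-blocked fit, 10 in each direction, did not pass there, with limma adjusted p from 0.0638 to 0.0751. The higher ones included the protocadherin Pcdh17 (2.64 ± 0.50 log2), Spata6 (1.50 ± 0.30), the sterol transfer protein Gramd1b (1.30 ± 0.27), the peptide carrier Slc15a1 (1.28 ± 0.26), the secretory GTPase Rab3d (1.24 ± 0.26) and the polarity scaffold Dlg5 (0.73 ± 0.14). Rab3d was called in the subtracted fit (2.59-fold, adjusted p = 0.0275) and Stx3 in both other fits. Pcdh17 read 5.28, 6.98 and 7.65 in the adenomas against 4.15, 4.08, 4.72, 6.91 and 4.28 in the nodules. Nodule 4 lay with the adenomas and the other nodules below all of them.

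The lower ones included, besides Cyp1a1, Gstp3, Acox2, Fzd8 and Zyg11b, the amino acid and amine enzymes Cdo1 (-0.69 ± 0.15) and Maob (-0.54 ± 0.11), the mitochondrial aspartate and glutamate carrier Slc25a13 (-0.64 ± 0.12), the corticosteroid-binding globulin Serpina6 (-1.08 ± 0.24) and Nat8f3 (-1.58 ± 0.30). Serpina6 and Slc25a13 were called in the plain fit (limma adjusted p = 0.0385 and 0.0497). Fzd8 was called in the plain and subtracted fits at 1.52-fold and 1.51-fold lower (adjusted p = 0.0422 and 0.045).

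Markers of other cell types are given for the gene groups above, since a whole lesion was extracted and fewer cells of a type cannot be told apart from less RNA per cell. Hepatocyte markers (10 of 11 measured) were high in every lesion, with means of 13.45 to 13.78 in the adenomas and 13.76 to 13.90 in the nodules. Their median difference was -0.21 log2 in the blocked fit, none was called, and 9 of 10 were negative. Apoa1 (0.78 ± 0.33) and Apoa2 (-1.06 ± 0.54) were the extremes, with limma adjusted p of 0.257 and 0.345.

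Cholangiocyte and progenitor markers (9 of 12 measured) had means of 5.86 to 8.41 in the adenomas, 5.68 to 8.03 in the nodules and 5.19 to 5.56 in the 4 control arrays, and none was called in any fit. Krt19, a keratin of bile duct and progenitor cells, read 7.69, 10.32 and 11.14 in the adenomas against 7.66, 7.31, 7.35, 10.60 and 7.85 in the nodules (blocked 2.27 ± 1.22, limma adjusted p = 0.371). Spp1, osteopontin, read 10.95, 10.91 and 8.32 in adenomas 1, 2 and 6 and 5.48 to 5.92 in adenomas 3, 4 and 5, against 8.63 in nodule 4 and 5.77 to 6.57 in the other nodules. Adenomas 3 and 4 thus had little Spp1 and much Krt19 (9.03 and 11.14).

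Stellate cell and fibroblast markers (16 of 16 measured) had means of 6.98 to 8.81 in the adenomas and 6.84 to 8.70 in the nodules. Vim, the filament of mesenchymal cells, read 11.79, 11.78 and 11.10 in adenomas 1, 2 and 6, 11.00 in nodule 4 and 8.69 to 9.91 in the other 7 lesions. Macrophage (12 of 15), endothelial (12 of 15), lymphocyte (13 of 15) and blood cell markers (8 of 11) had medians of 0.15, 0.24, 0.19 and -0.10 in the blocked fit. None was called in any of the 3 fits. Clec4f, a Kupffer cell lectin, differed by -0.37 ± 0.32 and Hbb, a haemoglobin chain, by -0.71 ± 0.31 in the blocked fit (limma adjusted p = 0.6 and 0.268). The part of these cells in the gene groups above was not tested. The mitosis list was 0.95, 1.27 and 1.78 above the own liver in adenomas 1, 2 and 6 and 1.20 to 1.82 above in adenomas 3, 4 and 5. It was 0.56 above in nodule 4 and 0.30 to 0.74 above in the other nodules.

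Antigen presentation genes (12 of 12) followed the same 4 lesions. RT1-Da, a class II chain, was 2.69, 2.11 and 1.59 log2 above the own control array in adenomas 1, 2 and 6 and 1.78 above in nodule 4, and between -0.23 and 0.44 in the other lesions. The list median was 0.45 in the blocked fit, 0.36 in the plain fit and 0.48 in the subtracted fit, and no gene was called. Without the 4 lesions the subtracted median was 0.15.

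Further lists had smaller medians, and no member of them was called in any fit. Phenobarbital-responsive genes (16 of 20 measured) had a blocked median of -0.19 log2, periportal genes (15 of 17) -0.37, fatty acid synthesis genes (17 of 18) 0.13, fatty acid oxidation and ketone synthesis genes (16 of 19) -0.25, glycolysis genes (15 of 19) 0.21, serine, glycine and one-carbon genes (17 of 17) 0.18 and p53 targets (16 of 20) 0.07. Hepatocyte transcription factors (14 of 15) had -0.28 and inflammatory mediators (12 of 12) 0.33. The serine list held moves in both directions. In the blocked fit 4 of its 17 genes were higher and 3 lower at an unadjusted limma p under 0.05. Over all genes, 9.51% were higher and 6.42% lower. After subtraction, 4 of the 17 had all adenomas above all nodules, where 1.77% of all genes did. Single members moved further without passing. Cyp2c7, a P450 raised by phenobarbital, differed by -2.55 ± 0.55 in the plain fit (limma adjusted p = 0.0567) and Cbs, the enzyme that makes cystathionine, by -1.86 ± 0.47 in the blocked fit (adjusted p = 0.0928). Aldoa, the muscle-type aldolase, differed by 1.03 ± 0.26 in the blocked fit (limma adjusted p = 0.0959), and Phgdh, the first enzyme of serine synthesis, by 1.33 ± 0.45 (adjusted p = 0.168). Without adenomas 1, 2 and 6 and nodule 4, Cbs was called in the blocked, plain and subtracted fits (limma adjusted p = 0.0196, 0.0042 and 0.00413). Some other members of these lists were then called in part of the fits.

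**Figure D5:**
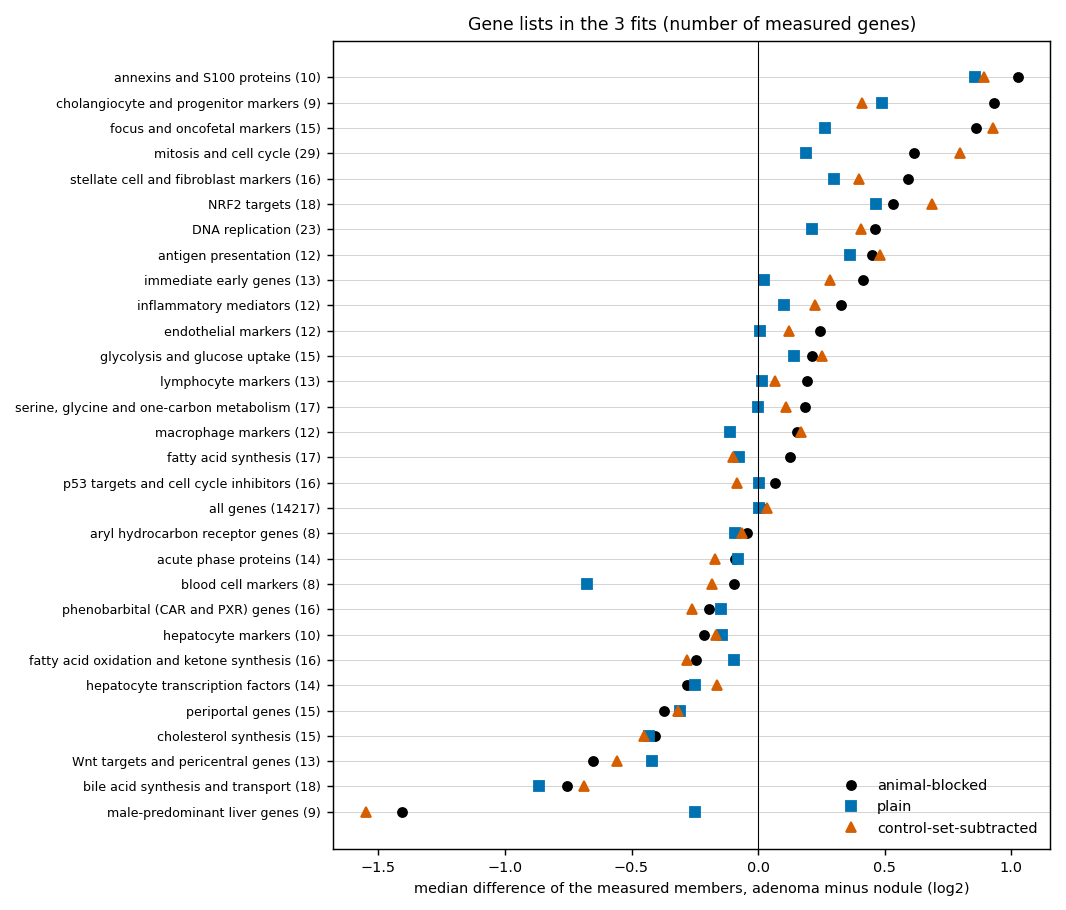
Median log2 difference (adenoma minus nodule, horizontal axis) of each gene list and of all genes in the animal-blocked (circles), plain (squares) and control-set-subtracted fit (triangles), with the number of measured genes in brackets. Mitosis genes have medians of 0.61, 0.19 and 0.80 and male-predominant genes of -1.41, -0.25 and -1.55, while bile acid genes keep -0.75, -0.87 and -0.69.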

How the data were processed

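The authors deposited log2 probe set values, used as deposited; the background correction, summarization and normalization are not given in the sources used here. Per the labels' protocols, RNA of the frozen pieces was purified by TRIzol followed by miRNeasy, and labelled with a 3′ IVT kit. Of 31042 probe sets, 20826 with 1 gene symbol were kept, and 436 with several and 9780 with none were left out. For each of 14217 genes, the brightest probe set on average over the 26 frozen arrays was taken, named from GEO's platform annotation. No value was missing, and no arrays were identical.

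Groups follow the group labels, and rats and control sets their labels. Differences (adenoma minus nodule) were fitted with limma 3.58.1 in R 4.3.3, with moderated statistics and an intensity trend, and a gene was called where its p, adjusted by Benjamini-Hochberg over all genes, was under 0.05. The animal-blocked fit has group and rat as terms (26 arrays, 5 rats, 17 residual degrees of freedom). The plain fit (11 lesions) and the control-set-subtracted fit (11 differences to 4 control arrays) have 9 each. The rat pairs samples by origin, as its lesions and liver share 1 animal; for 3 arrays of rat 21, whose animal field disagrees, the rat was read from the title and control set. Deviations of same-group lesions from their mean correlated at a median of -0.122 within a rat (8 pairs) and -0.305 between rats (17 pairs). Deviations from a shared mean cancel out, so such correlations are negative even for independent lesions. They do not show that lesions of a rat are independent. Replicate numbers were not used as a pairing. Errors beside differences are standard errors of the fits. Fits were tested on simulated data. Its noise was independent between arrays, so the simulation cannot show how the p-values behave where lesions of a rat are not independent.

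The comparison, the 29 gene lists and the tests were chosen with earlier results of these data known. Named by rule were Mki67, Cdk1, Cyp2e1 and Gstp1, the 10 genes with the smallest p per direction in the blocked fit (as none was called), up to 4 per list with the smallest p there, and the extremes of the cell type lists. Other genes were named after their values were seen, mostly because the plain or subtracted fit called them. Lists are described by counts and medians, without set tests. Alternatives were other blocks, each lesion or control array left out, median centring, quantile normalization, a filter at the median signal, other probe set choices and other variance settings, and the 4 lesions left out together. FFPE arrays and the arrays named C43 were not used here.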

Additional observations from a re-analysis of the deposited data

Results flagged for a closer look

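Each group of 6 adenomas or 5 nodules was searched for a value far from the others by Dixon's ratio, for the 30 genes and 29 lists with values by sample (118 groups). Of these, 14 were marked. A rate of about 1 in 20 by chance holds for independent values. Here lists contain some of the genes, lesions share rats, and many genes were named after their values were seen. The count of 14 therefore cannot be set against that rate.

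Nodule 5, the nodule of rat 14, stood apart 7 times. It was lowest for Mki67 (4.43, other nodules 6.39 to 6.57), Cdk1 (5.34, others 6.95 to 7.12), Top2a (5.32, others 6.20 to 6.47), Akr1b7 (7.18, others 10.43 to 10.94) and the mean of the mitosis list (5.27, others 6.14 to 6.21), all as log2 signals. It was highest for Obp3 (11.99, others 4.22 to 5.53) and RT1-CE10 (9.95, others 6.65 to 7.39).

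Nodule 4 of rat 11 was highest for Spp1 (8.63, others 5.77 to 6.57), S100a10 (10.75, others 9.73 to 10.02), the annexin and S100 list (10.19, others 8.32 to 8.80) and the cholangiocyte and progenitor list (8.03, others 5.68 to 6.10), and lowest for Slc10a1 (11.39, others 11.69 to 11.76). Adenoma 2 of rat 14 was highest for Cyp1a2 (9.50, other adenomas 6.31 to 7.10) and Akr1c1 (8.27, others 5.12 to 5.87). The causes were not tested.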

How the results depend on the processing

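Counts of called genes (higher, then lower in adenomas) depended on the setting. For the animal-blocked fit (0 and 0), the plain fit of 11 lesions gave 23 and 49, 26 arrays with no replicate block by rat 198 and 239, lesion minus control 44 and 20, the rat as a random block 25 and 49, means per rat 0 and 4, median centring 1 and 7, and a filter on low values 1 and 2. Leaving out single arrays gave 0 to 102 and 0 to 112, and leaving out the 4 lesions 38 and 43. A block by control set, 15 arrays, quantile normalization, other probe set choices and other variance settings kept it at 0. For the plain fit (23 and 49), median centring gave 82 lower, the filter 73 and 110, the probe set mean 7 higher, single arrays left out 0 to 190 and 0 to 234, and the 4 lesions left out 37 higher. For the subtracted fit (44 and 20), centring gave 91 lower, quantile normalization 17 higher, the filter 117 and 99, the most variable probe set 33 lower, the probe set mean 20 and 9, single arrays left out 0 to 248 and 0 to 209, and the 4 lesions left out 85 and 101. With the replicate block by control set in place of subtraction, the smallest adjusted p was 0.18, and 1727 genes had an unadjusted p under 0.05. Genes at an unadjusted p under 0.05 in the blocked fit numbered 1352 higher and 913 lower, and 655 and 2074 after centring. The causes were not tested.

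Within the settings of the fit that called it, no called gene of the text changed sign, and none of the 40 (subtracted) and 30 (plain) stayed past the threshold in every setting. Between fits signs did differ: 4 genes called in the subtracted fit, Cyp2c12 among them, had the opposite sign in the plain fit, and 2 called in the plain fit had it in the subtracted fit. With few rats, the difference between lesion types and that between rats cannot be told apart outside rat 14. Signal near background limits dim genes such as Exo1.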
